A study of Homo sapiens and Mus musculus with 69 samples.

Results

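*ID1*, *ID2*, *ID3*, *ID4*, *BMP2*, *BMP4*, *BMP7* and *SMAD6* were followed in every RNA-Seq library of small cell lung cancer (SCLC) cells of the series. They were chosen by symbol, 8 of the 20516 genes listed for the human lines, and by the title-case symbols of the same genes, 8 of the 18501 listed for the mouse line KP1. All 8 were found in both tables. The series holds 69 libraries in groups of 3, of which 60 in 20 groups are human and 9 in 3 groups are of KP1. The human lines are H82 (21 libraries), H524 (15), H69 (9) and COR-L88 (15). H82, H524 and H69 were studied as parental cells and as cells with a doxycycline-inducible vector for *N1ICD*, the intracellular domain of NOTCH1, which is its active signaling form, without and with doxycycline (dox). H524 cells were also given an inducible vector for *REST*, a transcriptional repressor of neuronal genes. H82 *N1ICD* cells were studied in addition with *REST* knockout (KO) and, in other cells, labelled *STING1* KO, each without and with dox. COR-L88 cells received DMSO, the LSD1 inhibitor TAS1440, or TAS1440 with a γ-secretase inhibitor (GSI), which blocks the release of the intracellular domain of Notch receptors. COR-L88 cells labelled *STING1* KO received DMSO or TAS1440, and KP1 cells received DMSO, TAS1440, or TAS1440 with GSI. The labels name no clones and do not say that the 3 libraries of a group came from separate cultures. *P* values therefore measure the spread between these libraries. The paper shows single-cell clones of *REST* KO and *STING1* KO cells on immunoblots. Which of them were sequenced is not in the labels, so effects of a KO and of its clone cannot be told apart here. The labels give no times. The paper states that overexpressing cells were collected as adherent cells, those attached to the plate, after long-term dox. TAS1440 was also given long-term. Effects of induction and of collecting adherent cells cannot be told apart here.

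BMP ligands such as BMP2, BMP4 and BMP7 are secreted dimers of the TGF-β family. They bind type I and type II receptor kinases, which phosphorylate SMAD1, SMAD5 and SMAD9, and these enter the nucleus with SMAD4. The *ID* genes are the best-known direct targets of this route, and *SMAD6* is both a target and an inhibitor of it. ID proteins have a helix-loop-helix domain but no basic DNA-binding region. They pair with E proteins such as TCF3 and TCF12 and so keep them from partners like NEUROD1, a lineage factor of neuroendocrine SCLC.

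In the GRCh37 annotation, *BMP2* lies at chr20:6748333-6760893, *BMP4* at chr14:54416454-54425479, *BMP7* at chr20:55743809-55841697 and *SMAD6* at chr15:66994574-67075187. *ID1* lies at chr20:30193086-30194318, *ID2* at chr2:8818975-8824591, *ID3* at chr1:23884417-23885992 and *ID4* at chr6:19837601-19842428. RefSeq promoter sequence (GRCh38.p14) was matched for 6 of the 8 genes. The 250 bases before the start site are shown for *ID1*, *ID2* and *ID3*, the ID genes that differed most between replicate libraries. They are also shown for the first of the 3 start sites listed for *BMP4*. This ligand was higher with *N1ICD* in H82 and with TAS1440 in COR-L88 and KP1. It was lower with *N1ICD* in H69 and too low to be tested in H524. Capitals mark GTCT (a SMAD-binding element), TGGGAA (the core read by the Notch partner RBPJ) and GGCGCC (a GC-rich BMP response element) on either strand, so the reverse complements are in capitals too.
ID1, chr20:31605039-31605288, plus strand: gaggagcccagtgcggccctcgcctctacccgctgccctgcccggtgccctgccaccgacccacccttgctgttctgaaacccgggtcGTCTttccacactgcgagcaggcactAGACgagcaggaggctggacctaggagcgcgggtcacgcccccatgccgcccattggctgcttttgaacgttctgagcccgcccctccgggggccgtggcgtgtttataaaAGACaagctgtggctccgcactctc
ID2, chr2:8681806-8682055, plus strand: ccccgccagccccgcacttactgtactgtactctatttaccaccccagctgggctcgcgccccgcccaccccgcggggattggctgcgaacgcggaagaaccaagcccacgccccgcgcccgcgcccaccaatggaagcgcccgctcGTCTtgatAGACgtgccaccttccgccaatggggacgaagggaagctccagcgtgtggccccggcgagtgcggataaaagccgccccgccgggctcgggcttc
ID3, chr1:23559502-23559751, minus strand: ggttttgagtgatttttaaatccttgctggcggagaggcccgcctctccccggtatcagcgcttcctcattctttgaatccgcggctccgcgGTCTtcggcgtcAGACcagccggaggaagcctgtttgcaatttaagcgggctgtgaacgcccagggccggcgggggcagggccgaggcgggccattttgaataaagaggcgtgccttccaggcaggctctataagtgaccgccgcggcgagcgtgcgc
BMP4, chr14:53955051-53955300, minus strand: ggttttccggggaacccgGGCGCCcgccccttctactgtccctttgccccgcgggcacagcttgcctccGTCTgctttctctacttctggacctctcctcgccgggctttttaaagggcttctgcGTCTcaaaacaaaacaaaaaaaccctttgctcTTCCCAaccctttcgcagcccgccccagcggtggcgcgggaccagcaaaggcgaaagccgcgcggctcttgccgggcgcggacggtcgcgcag
GTCT on either strand was matched 3 times before *ID1* and 2 times each before *ID2*, *ID3* and this start of *BMP4*. In the windows not shown, it was matched 1 time before *ID4* and 2 times before *SMAD6*. These 4 letters were in 77.5% of the 35116 promoter windows of the same length. TGGGAA was matched 1 time before this start of *BMP4* and in 20.8% of all windows, and GGCGCC 1 time there and in 16.4% of all windows. The other 2 start sites of *BMP4* (chr14:53954489-53954738 and chr14:53953396-53953645) held neither TGGGAA nor GGCGCC, and GTCT was matched 0 and 2 times there. No match overlapped another. The last 2 motifs were not matched in the windows of *ID1*, *ID2*, *ID3*, *ID4* and *SMAD6*, a statement about these letters in these windows only.

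All values are log2(RPKM + 1), where RPKM is the read count scaled to transcript length and library size. Differences are given in these log2 units, in which a change of a gene near 0 appears smaller than it is. Relative library size, read from the steps between the lowest values, was 0.695 to 1.52 times the median for human libraries and 0.871 to 1.06 for KP1. The KP1 table was normalized separately, so levels are not compared between the tables. *N1ICD* cells with dox had *NOTCH1* values of 4.26 to 10.74, against at most 2.15 without dox. *REST* mRNA remained in *REST* KO cells with dox, at 4.95 to 5.89 against 6.13 to 6.48 without the KO. *STING1* mRNA, listed as *TMEM173*, was 1.27 to 2.04 in H82 *N1ICD* cells labelled *STING1* KO with dox and 1.07 to 1.17 without the KO, so these RNA values do not check that label. Parental or DMSO-treated cells held *NEUROD1* at 13.07 to 14.27 in H82 and H524, 3.32 to 5.03 in H69 and 5.56 to 5.75 in COR-L88. The white blood cell markers *PTPRC* and *CD3E* were at 0.38 or below in all human libraries. The SD of the differences to the other libraries of the group was 0.144 to 0.699 over all libraries, highest for library 4 of H82 *N1ICD* cells without dox. Libraries are called by the numbers in their labels.

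The 8 genes covered a wide range across the human lines. *ID3* was at 1 or above in all 60 human libraries, with values from 3.26 to 8.86 and a median of 6.15. *ID2* was at 1 or above in 59 libraries and *ID1* and *SMAD6* in 57 each. *BMP2* and *ID4* reached this level in 46 libraries, *BMP4* in 29 and *BMP7* in 16, and *BMP7* was listed at 0 in 27. The ligands were thus near 0 in some of the lines. In parental H69 cells *BMP7* was 7.21, 7.28 and 6.99 and *BMP2* 5.95, 5.98 and 5.72, while in parental H82 cells *BMP2* was 0.51, 0.00 and 0.00. *BMP7* was listed at 0 in 14 of the 15 COR-L88 libraries. *SMAD6* was 5.36 to 5.46 in parental H69 and 1.51 to 2.97 in parental H82.

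Ordered by group mean, neighboring groups overlapped at 18 of 19 steps for *ID1* and *ID3* and at 14 of 19 for *SMAD6*, so most neighbors in this order were not apart. *ID1* was highest in COR-L88 cells labelled *STING1* KO with TAS1440 (6.61 ± 0.24, SD, n = 3) and lowest in H82 *N1ICD* cells with dox (1.26 ± 0.61). *ID2* was highest in COR-L88 with TAS1440 and GSI (7.60 ± 0.12) and lowest in H69 *N1ICD* cells with dox (2.08 ± 0.22). *ID3* was highest in H82 *N1ICD* *REST* KO cells with dox (8.60 ± 0.39), as were *ID4* (4.28 ± 0.54) and *BMP2* (7.33 ± 0.68). *BMP4* peaked in the H82 cells labelled *STING1* KO with dox (5.36 ± 0.39) and *SMAD6* in the same COR-L88 group as *ID1* (7.35 ± 0.28).

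**Figure D1:**
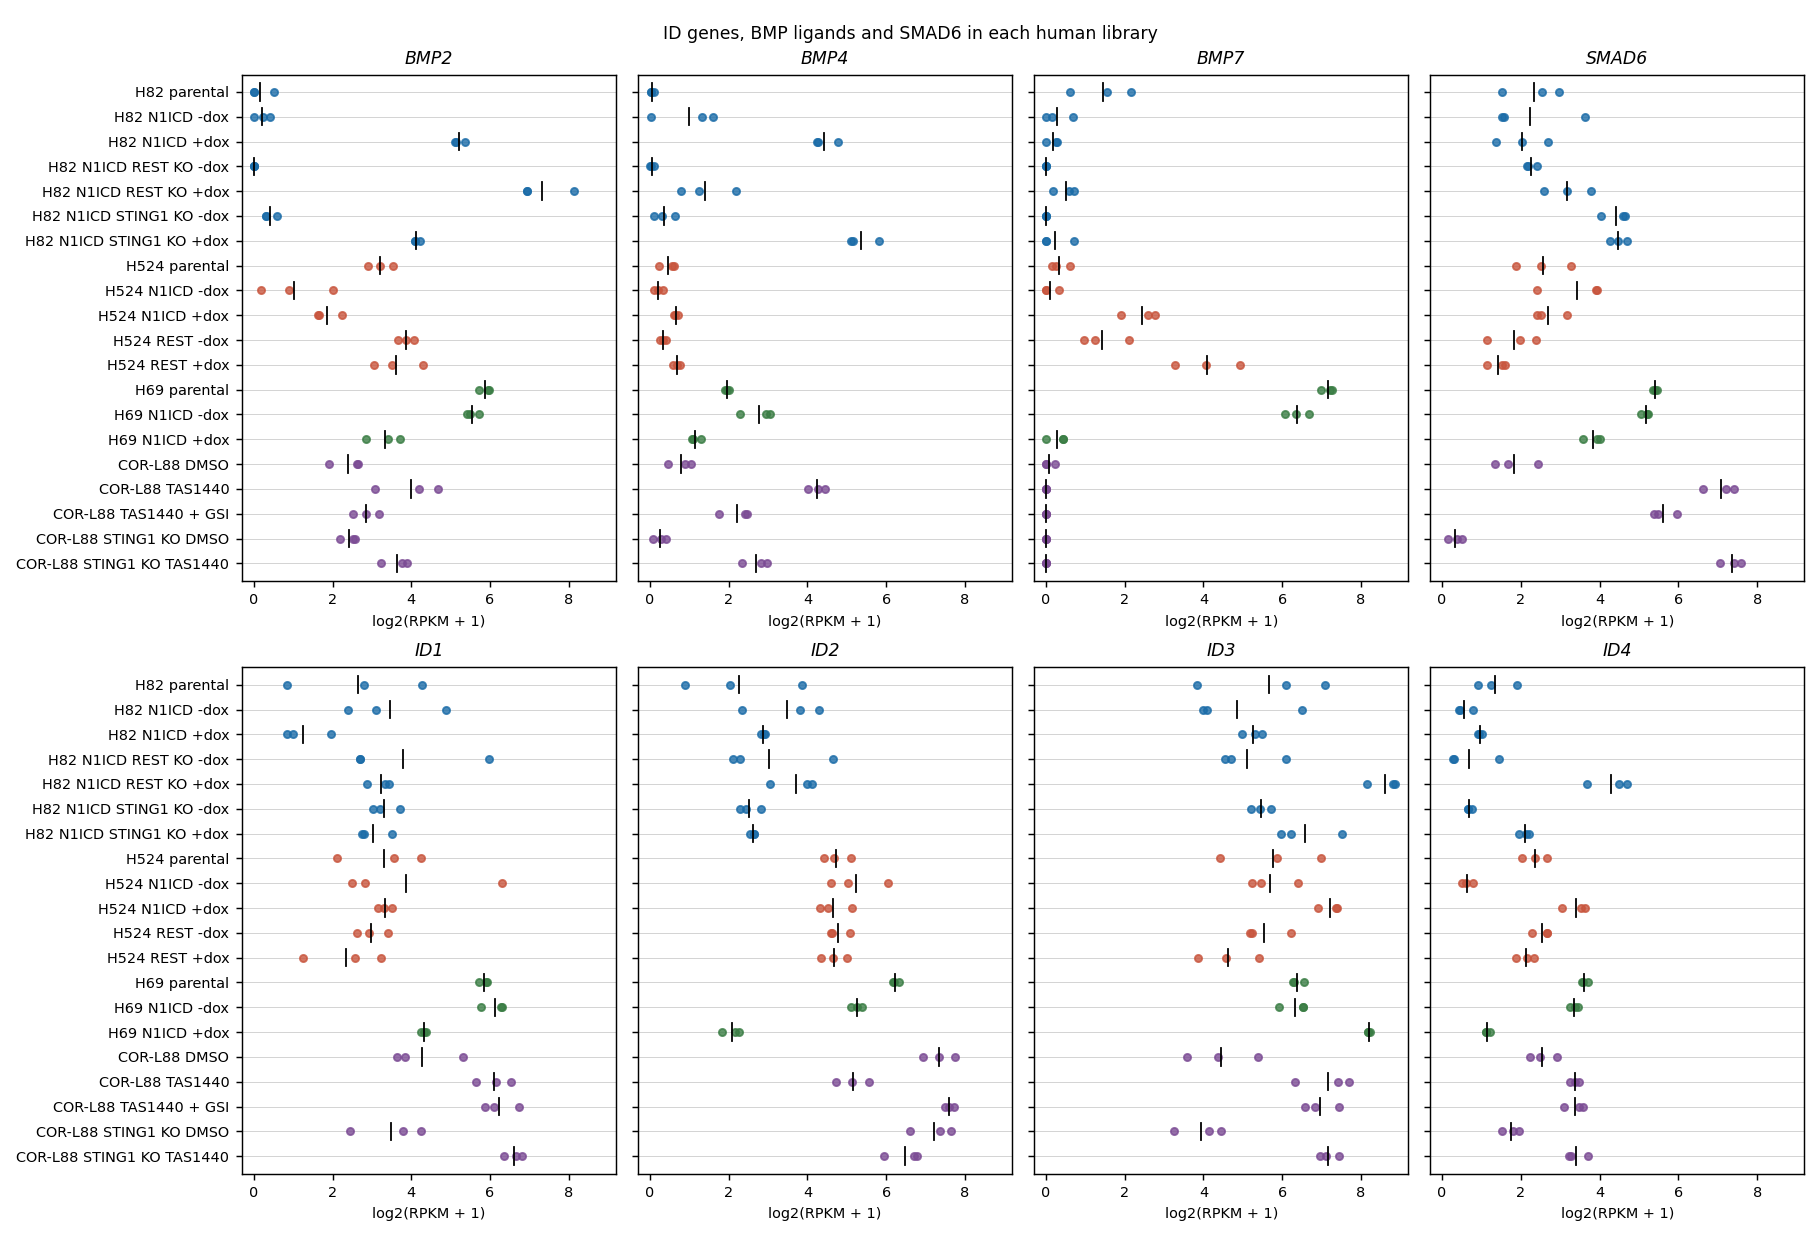
Log2(RPKM + 1) (x axis) of the 8 genes in the 20 human groups (rows; -dox and +dox, without and with doxycycline), with 1 point for each of the 3 libraries and a vertical bar at the mean; colors mark the lines. The points of H69 lie close together, whereas those of *ID1* in parental H82 cells run from 0.85 to 4.28.

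Replicate libraries differed more in the ID genes than in most genes. The pooled SD within the 20 human groups was 0.95 for *ID1*, 0.76 for *ID3*, 0.62 for *ID2* and 0.53 for *SMAD6*, against a median of 0.24 over 15888 genes. *ID1* stood at percentile 99.3, *ID3* at 98.3 and *ID2* at 96.6 of these genes, while *ID4* stood at 66.4. The spread was uneven between lines. In parental H82 cells *ID1* was 4.28, 0.85 and 2.81 and *ID3* 7.09, 3.83 and 6.09 in the same 3 libraries. In H82 *REST* KO cells without dox *ID1* was 2.69, 2.70 and 5.98, with *ID2* at 2.30, 2.11 and 4.65 and *ID4* at 0.30, 0.27 and 1.46. In each case the library high in one ID gene was high in the others.

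Across the 60 human libraries, deviations from the group mean were compared for the 10 pairs of *ID1* to *ID4* and *SMAD6*, by two-sided permutation within groups (100000 resamples, adjusted by Benjamini-Hochberg over the 10 pairs). *ID1* and *ID3* deviated together, with a Pearson r of 0.85 (permutation *P* = 1e-05, the smallest these permutations can give, adjusted *P* = 0.0001) and a Spearman rho of 0.88 (permutation *P* = 1e-05, adjusted *P* = 5e-05). Without the 2 libraries furthest from the median of *ID1*, r was 0.89, and within lines it was 0.88 in H82, 0.79 in H524, 0.90 in H69 and 0.91 in COR-L88. By this measure *ID3* ranked 1 and *ID2* ranked 2 of 15887 genes in likeness to *ID1*. For *ID1* and *ID2*, r was 0.77 (permutation *P* = 8e-05, adjusted *P* = 0.000267) and rho 0.67 (permutation *P* = 1e-05, adjusted *P* = 5e-05). Without the 2 furthest libraries it was 0.72, but it did not hold in H69, where r was -0.36 over 9 libraries. *ID2* and *ID4* gave an r of 0.76 (permutation *P* = 5e-05, adjusted *P* = 0.00025) and a rho of 0.68 (permutation *P* = 4e-05, adjusted *P* = 0.000133), with 0.66 without the 2 furthest libraries. The line values of this pair were 0.84 in H82, 0.58 in H524, 0.18 in H69 and 0.63 in COR-L88. The pairs *ID1* with *ID4*, *ID2* with *ID3* and *ID3* with *ID4* had r of 0.61, 0.64 and 0.50 and rho of 0.58, 0.59 and 0.47. Their adjusted permutation *P* values were 0.000875, 0.0011 and 0.00738 for r and 0.00042, 0.00035 and 0.00585 for rho. Without the 2 furthest libraries r was 0.56, 0.57 and 0.44, and in H69 all 3 pairs were negative, at -0.37, -0.26 and -0.25. In the 9 KP1 libraries r was 0.91 for *Id1* with *Id2* and 0.64 for *Id2* with *Id3*, but 0.38 for *Id1* with *Id3* and 0.05 for *Id3* with *Id4*. *Id4* deviated opposite to *Id1* and *Id2* there, with r of -0.88 and -0.67. Library 4 of KP1, with TAS1440, had the highest *Id4* and the lowest *Id1* and *Id2* of its group. The KP1 values were not tested, and none was computed with libraries left out.

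*SMAD6* did not pass with any ID gene over all lines, with r of 0.38 with *ID1*, 0.18 with *ID2*, 0.39 with *ID3* and 0.25 with *ID4*. The adjusted permutation *P* values of these 4 pairs were 0.0912, 0.417, 0.0912 and 0.121, and those of rho (0.29, 0.07, 0.33 and 0.28) were 0.097, 0.692, 0.0768 and 0.097. Without the 2 furthest libraries r was 0.40, 0.13, 0.20 and 0.39. The relation with *ID3* was uneven between lines, with r of 0.73 in H82 and 0.91 in COR-L88 but -0.49 in H524 and 0.23 in H69. Deviations in relative library size had r of -0.22 with *ID1* and -0.10 with *ID3*, and after centering each library on its median r between *ID1* and *ID3* was 0.86. What else the libraries that rose together share was not tested.

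**Figure D2:**
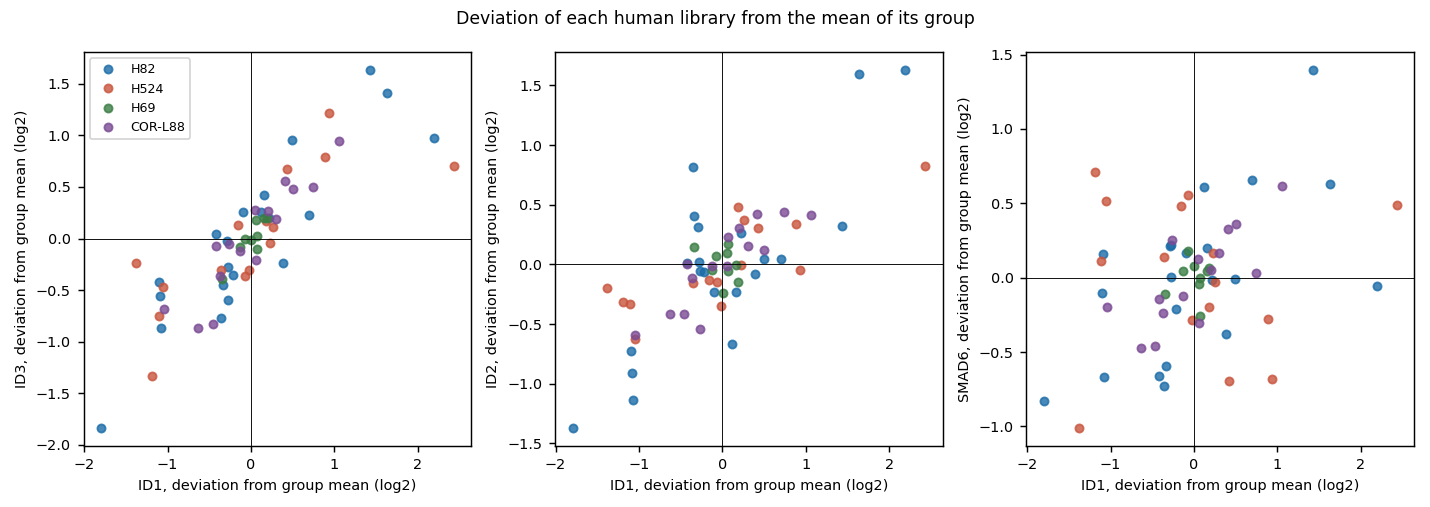
Deviation of *ID3*, *ID2* and *SMAD6* (y axes) against that of *ID1* (x axis), in log2 units from the mean of the group, with 1 point for each of the 60 human libraries, colored by line. The *ID3* points follow a rising line (Pearson r 0.85), *ID2* less closely (0.77) and *SMAD6* loosely (0.38).

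The question was how these genes differ after long-term activation of NOTCH1 in lines of neuroendocrine SCLC. In H82 the ligands *BMP2* and *BMP4* rose with *N1ICD*. *BMP2*, a classical osteogenic ligand, was 0.00, 0.41 and 0.23 without dox and 5.12, 5.15 and 5.36 with it. *BMP4*, a ligand with wide roles in lung and mesoderm development, was 0.03, 1.32 and 1.61 without dox and 4.77, 4.24 and 4.27 with it. For both ligands every library with dox lay above every library without. In this and the later comparisons, overlap of groups was examined for the members only. How common such separation was among all genes was not counted. The differences were 4.99 for *BMP2* (standard error 0.24, limma adjusted *P* = 1.81e-11) and 3.44 for *BMP4* (standard error 0.35, limma adjusted *P* = 2.78e-07). *BMP7* stayed low, with at most 0.68 in these 6 libraries, and was not tested.

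*ID1* was 4.89, 3.11 and 2.39 without dox and 1.96, 0.84 and 0.98 with it. The groups did not overlap, and the difference was -2.20 (standard error 0.83, limma adjusted *P* = 0.0336). Without library 4, the highest, it was -1.49 (limma adjusted *P* = 0.159). It also did not pass without library 5, 8 or 9 (limma adjusted *P* = 0.0501, 0.0966 and 0.0867) or without the filter on low values. *ID2* was 3.80, 4.29 and 2.35 without and 2.93, 2.89 and 2.83 with dox, and *ID3* 6.49, 4.08 and 3.99 without and 5.49, 5.30 and 4.98 with dox, overlapping in both cases. The difference of *ID3* was 0.40 (standard error 0.70, limma adjusted *P* = 0.659), that of *ID4* 0.40 (standard error 0.30, limma adjusted *P* = 0.278) and that of *SMAD6* -0.21 (standard error 0.48, limma adjusted *P* = 0.736). Without library 4 they were 1.22 for *ID3* and 0.48 for *SMAD6*, neither called. Of the 7 members tested, 2 rose and 1 fell, against 27.1% of all genes called in either direction. The median difference was 0.40 over the members tested and 0.00 over all genes (H82, 13903 genes). In such bulk libraries, fewer cells of a type and less RNA per cell cannot be told apart. To be called, a gene needed an adjusted *P* below 0.05 and a difference of 1 or more in either direction.

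Other genes of the route and of the wider TGF-β family were counted in the same comparison, in which 27.1% of all genes were called. Of 9 other BMP and GDF ligands tested, 7 rose and 1 fell, with a median of 1.99. This list also holds genes such as *GDF15*, *INHBA* and *INHBB*, so its counts are not those of BMP ligands alone. *GDF15*, a stress-induced member of the family, went from 4.08 to 11.99 and *BMP6* from 0.14 to 2.74. Among 10 antagonists and related secreted or decoy proteins, 5 rose and 2 fell. The follistatin-like genes *FSTL1* and *FSTL3* led them, with means from 6.88 to 11.63 and from 1.03 to 4.44. *SMAD9*, one of the BMP-activated SMADs, fell by 4.17 (standard error 0.22, limma adjusted *P* = 5.94e-11), and *SMAD7*, an inhibitory SMAD like *SMAD6*, rose by 1.26 (standard error 0.26, limma adjusted *P* = 0.000512). Of 10 receptors, 1 was called, *ACVR2B*, which fell. Among 8 other targets of BMP signaling, 3 rose and 1 fell, and the 2 with the largest rises, *HES1* and *HEY1*, are also Notch targets. Of 4 E proteins and lineage factors tested, 3 fell, led by *NEUROD1* from 13.81 to 4.72. The markers of adherent non-neuroendocrine cells *AXL* and *VIM* moved with these groups, with a median *AXL* of 2.92 without dox and 8.02 with it. Their part in the result was not tested.

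Compared with parental H82 cells, the *N1ICD* vector without dox changed 0 of 7 members by limma, with 6.41% of all genes called. At an unadjusted *P* under 0.05, *ID4* (difference -0.80) and *BMP4* (0.93) were below this level, 2 members in all. *BMP4* was called at 1.41 without library 4 and at 2.45 with a pseudocount of 0.1, *ID2* at 2.01 without library 1 and *ID4* at -1.02 without library 2. With all libraries the differences were 0.82 for *ID1*, 1.22 for *ID2*, -0.82 for *ID3*, 0.04 for *BMP2* and -0.10 for *SMAD6*. *BMP7* was 0.61, 2.17 and 1.56 in parental cells and 0.16, 0.68 and 0.00 in the vector cells.

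With *REST* KO, the induction of *N1ICD* gave another pattern, in which *ID3* and *ID4* rose as well. *ID3* was 4.69, 4.56 and 6.09 without dox and 8.15, 8.80 and 8.86 with it. *ID4* was 0.30, 0.27 and 1.46 without dox and 4.68, 4.49 and 3.67 with it. Both groups of each gene were apart. The differences were 3.49 for *ID3* (standard error 0.70, limma adjusted *P* = 0.000444) and 3.60 for *ID4* (standard error 0.30, limma adjusted *P* = 1.28e-08). *BMP2* was listed at 0 in all 3 libraries without dox and was 6.93, 6.95 and 8.12 with it (limma adjusted *P* = 9.76e-14). *BMP4* was 0.03, 0.00 and 0.10 without and 0.80, 1.25 and 2.19 with dox, a difference of 1.37 (standard error 0.35, limma adjusted *P* = 0.00336). It was not called without library 33, where it was 0.98, or with quantile normalization (0.90, limma adjusted *P* = 0.0555). Of 7 members tested, 4 rose and none fell, against 29.9% of all genes called. *ID1* was 2.89 to 3.44 and *ID2* 3.05 to 4.13 with dox, inside the range of the libraries without dox.

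Set side by side with dox, the cells with *REST* KO held more *BMP2*, *ID3* and *ID4* and less *BMP4* than the cells without. *ID3* was higher by 3.35 (standard error 0.70, limma adjusted *P* = 0.00116), *ID4* by 3.33 (standard error 0.30, limma adjusted *P* = 1.45e-07) and *BMP2* by 2.12 (standard error 0.24, limma adjusted *P* = 2.32e-06). *BMP4* was lower by 3.01 on the log2 scale, at 0.80 to 2.19 against 4.24 to 4.77 (limma adjusted *P* = 3.12e-06). The 4 called members of 7 stand beside 17.6% of all genes. *ID1* was 1.96 higher without overlap but did not pass (limma adjusted *P* = 0.069), and it passed in 3 alternatives. Of 8 other BMP targets tested, 6 were higher with the KO and 0 lower, with a median of 1.33 against -0.06 over all genes. This list holds *HES1* and *HEY1*, which are also Notch targets. *MSX1*, a homeobox target of BMP, went from 3.81 to 7.28 and *GATA2*, a hematopoietic and lung factor, from 0.27 to 2.71. Of 9 other ligands, *INHBB*, *INHBA* and *GDF6* were higher, and *BMP3* was among the 2 that were lower.

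The difference between the responses was tested itself. It was 3.20 for *ID4* (standard error 0.42, limma adjusted *P* = 3.42e-05), 3.09 for *ID3* (standard error 0.99, limma adjusted *P* = 0.0399), 2.34 for *BMP2* (standard error 0.34, limma adjusted *P* = 9.89e-05) and -2.07 for *BMP4* (standard error 0.50, limma adjusted *P* = 0.00742). The value of *BMP2* includes the group listed at 0. These are 4 of 7 members, with 12.9% of all genes called. The value of *ID3* was not called in 9 alternatives, namely without the filter and without library 4, 7, 8, 9, 28, 29, 32 or 33, with 2.27 as the lowest value (without library 4), and that of *BMP4* was not called (-1.09) with a pseudocount of 0.1. *NOTCH1* mRNA was 8.75 to 10.74 in the *REST* KO cells with dox and 4.26 to 5.56 in those without the KO, so that a higher level of *NOTCH1* moved with the KO. Its part in these differences was not tested. Without dox, *REST* KO changed 0 of 7 members by limma (6.24% of all genes). *BMP4*, with a difference of -0.94, was the only member at an unadjusted *P* under 0.05, and without library 4 it was called at -1.42.

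**Figure D3:**
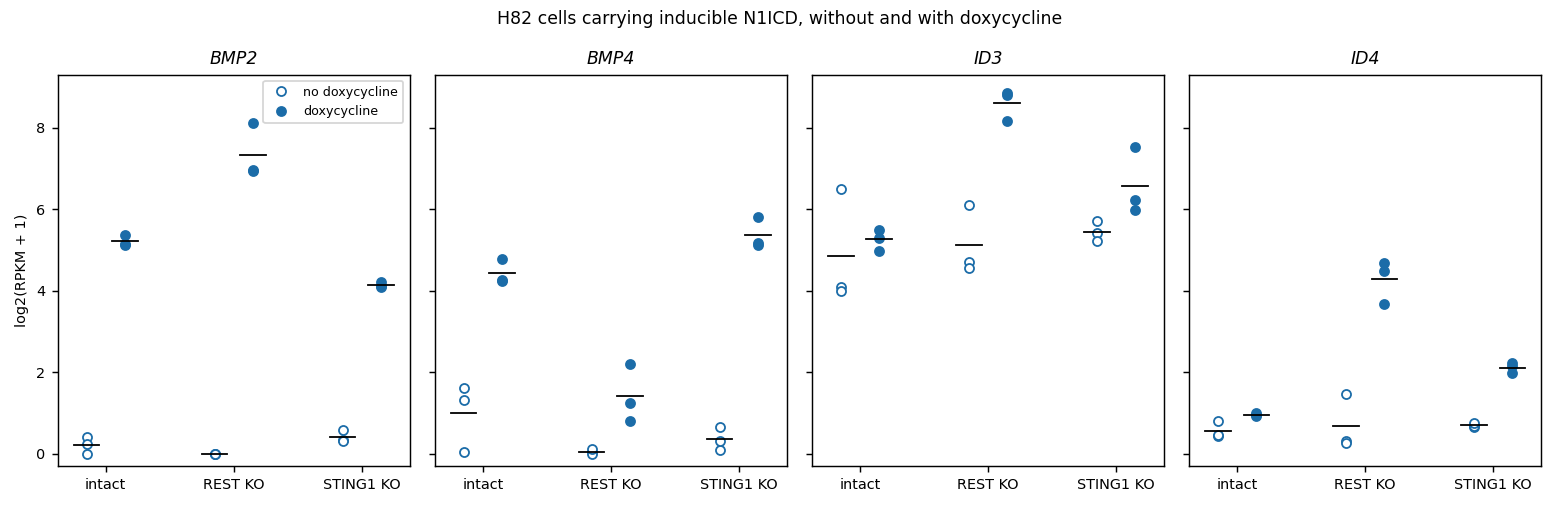
Log2(RPKM + 1) (y axis) of *BMP2*, *BMP4*, *ID3* and *ID4* in H82 *N1ICD* cells without (open) and with dox (filled), by knockout (x axis), with 1 point per library and a bar at the mean. With dox, *BMP4* is at 0.80 to 2.19 with *REST* KO and at 4.24 or above in the other cells, and *ID4* is at 3.67 or above with *REST* KO and at 2.22 or below in the others.

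In cells labelled *STING1* KO, *BMP4* rose from 0.64, 0.10 and 0.31 to 5.81, 5.11 and 5.16, and *BMP2* from 0.32, 0.59 and 0.32 to 4.21, 4.09 and 4.10. *ID4* rose from 0.66, 0.67 and 0.75 to 2.14, 1.97 and 2.22. None of these groups overlapped. The differences were 5.01 for *BMP4* (standard error 0.35, limma adjusted *P* = 3.36e-09), 3.72 for *BMP2* (standard error 0.24, limma adjusted *P* = 1.28e-09) and 1.41 for *ID4* (standard error 0.30, limma adjusted *P* = 0.00107). They make 3 of 7 members, with 20.2% of all genes called. Against *N1ICD* cells without the KO, both with dox, *SMAD6* was higher at 4.69, 4.26 and 4.47 against 2.69, 1.37 and 2.03 (difference 2.45, standard error 0.48, limma adjusted *P* = 0.000783), *ID4* was higher by 1.15 and *BMP2* lower by 1.07 on the log2 scale (limma adjusted *P* = 0.00568 and 0.00209). These are 3 of 7 against 16.5% of all genes, and that of *BMP2* was not called without library 9 or with quantile normalization (-0.98), both just below the fold required, or with a pseudocount of 0.1 (-1.11, limma adjusted *P* = 0.123). *ID1* and *ID3* were also higher with this KO and dox but not called. With only the compared groups they were called, at 1.76 and 1.31 (limma adjusted *P* = 0.0087 and 0.0372). *SMAD6* differed in the same way without dox, at 4.63, 4.59 and 4.05 against 3.64, 1.52 and 1.57 (difference 2.18, standard error 0.48, limma adjusted *P* = 0.00219), the only one of 7 members against 14.4% of all genes, and *BMP4* was called at -1.11 without library 4. The response of *SMAD6* to dox was thus 0.05 in the labelled KO cells and -0.21 in the others. Between the responses, only *BMP2* was called, with -1.27 (standard error 0.34, limma adjusted *P* = 0.0262), 1 of 7 members with 7.12% of all genes, and it did not pass with a pseudocount of 0.1 or without library 6, 9, 56, 59 or 60 (-1.18 to -1.28). *BMP4* had 1.57 (limma adjusted *P* = 0.0554) and was called at 2.05 without library 4. *NOTCH1* was 5.97 to 7.48 with dox in the labelled KO cells, against 4.26 to 5.56 in those without the KO, and its part in these differences was not tested.

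In H524 the members that rose with *N1ICD* were *BMP7* and *ID4*. *BMP7*, a ligand of kidney and epithelial development, was 0.00, 0.32 and 0.00 without dox and 2.60, 1.90 and 2.78 with it. *ID4*, an ID gene of the nervous system and mammary gland, was 0.80, 0.51 and 0.62 without and 3.06, 3.54 and 3.64 with dox. Neither gene overlapped between the groups. The differences were 2.32 for *BMP7* (standard error 0.38, limma adjusted *P* = 0.000354) and 2.77 for *ID4* (standard error 0.21, limma adjusted *P* = 1.95e-07). These 2 of 7 members stand beside 18.6% of all genes, and the median difference was 0.82 over the members and -0.02 over all genes. *ID3* was 6.40, 5.46 and 5.23 without and 6.92, 7.36 and 7.39 with dox, without overlap. Its difference of 1.53 (standard error 0.56, limma adjusted *P* = 0.0521) did not pass, and it was called in 3 alternatives, at 1.88 without library 22. Library 22, which had no dox, stood out with *ID1* at 6.30 against 2.49 and 2.82, and *BMP2* at 2.00 against 0.89 and 0.19. Without it, *BMP2* was also called, at 1.31 (limma adjusted *P* = 0.0113). *ID2* was 6.05, 5.02 and 4.60 without and 4.31, 4.53 and 5.14 with dox, and *SMAD6* 3.91, 2.41 and 3.93 without and 2.41, 3.18 and 2.50 with it, overlapping in both. With all libraries the differences were -0.55 for *ID1*, -0.56 for *ID2*, 0.82 for *BMP2* and -0.72 for *SMAD6* (limma adjusted *P* = 0.664, 0.231, 0.138 and 0.247), and *SMAD6* was called at -1.22 without library 23. *BMP4* was at 0.76 or below in all 15 H524 libraries and was not tested.

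The *REST* vector gave 1 called member of 7, with 1.87% of all genes called. *BMP7* rose from 2.11, 0.96 and 1.24 without dox to 4.93, 3.28 and 4.06 with it, a difference of 2.65 (standard error 0.38, limma adjusted *P* = 0.00248). Its mean without dox, 1.44, stood beside 0.34 in parental cells and 0.11 in *N1ICD* vector cells without dox. The *REST* vector cells were not tested against parental cells. *ID3* was 6.22, 5.18 and 5.23 without and 5.42, 3.87 and 4.58 with dox, and *ID4* 2.66, 2.66 and 2.30 without and 2.17, 1.89 and 2.33 with it, both overlapping. The differences of *ID1*, *ID2*, *BMP2* and *SMAD6* were -0.64, -0.10, -0.25 and -0.41 (limma adjusted *P* = 0.743, 0.913, 0.801 and 0.689). *REST* itself was 6.87 to 10.72 in these dox libraries. The responses to *N1ICD* and *REST* differed in *ID4* by 3.18 (standard error 0.29, limma adjusted *P* = 3.95e-06) and in *ID3* by 2.45 (standard error 0.79, limma adjusted *P* = 0.0459), 2 of 7 members with 15.6% of all genes. The value of *ID4* includes unlike controls. Its mean without dox was 0.64 in the *N1ICD* vector cells and 2.54 in the *REST* vector cells, and with dox 3.41 and 2.13. The value of *ID3* did not pass in 12 alternatives, without the filter, with median-centered libraries, or without library 23 to 27, 34 to 36, 38 or 39 (2.07 to 2.63). For *BMP7* the difference of the responses was -0.33 (standard error 0.54, limma adjusted *P* = 0.715).

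The H524 *N1ICD* vector cells differed from parental cells before induction. *ID4* was 2.67, 2.04 and 2.36 in parental cells and *BMP2* was 3.55, 2.89 and 3.21 in parental cells. The vector cells were lower by 1.72 on the log2 scale in *ID4* (limma adjusted *P* = 0.000113) and by 2.19 in *BMP2* (limma adjusted *P* = 0.00189), 2 of 7 members with 12.1% of all genes. *ID4* with *N1ICD* and dox, at 3.06 to 3.64, was also above the parental range, whereas *BMP2* with dox, at 1.64 to 2.25, was below it.

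With *N1ICD* in H524, 18.6% of all genes were called. Of 7 other ligands of the wider TGF-β family tested, 1 was called, *GDF15*, from 3.42 to 13.56. *HES1*, *HEY1* and *MSX1* were the 3 of 6 other BMP targets that rose, and *HES1* and *HEY1* are also Notch targets. *SMAD9* fell by 1.28 and *SMAD7* rose by 1.49 (limma adjusted *P* = 0.000335 and 2.61e-06). Of 9 antagonists 3 rose, *CHRDL2* from 0.02 to 2.79, *FSTL1* from 6.25 to 8.86 and *FSTL3* from 1.23 to 3.08, and *CHRDL1* fell from 2.95 to 1.77. Of 11 receptors the co-receptor *ENG* rose from 0.14 to 1.24. With *REST*, 0 of the ligands, receptors, SMADs and other targets were called, and the antagonist *CHRD* rose from 2.19 to 3.30. Of all genes, 1.87% were called there.

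All 8 members changed in H69, 1 upward and 7 downward, where 41.8% of all genes were called. *BMP7* was 6.69, 6.36 and 6.07 without dox and 0.44, 0.00 and 0.43 with it, the largest difference of a member in this line, -6.08 (standard error 0.18, limma adjusted *P* = 6.77e-09). *BMP2* fell from 5.73, 5.43 and 5.48 to 3.72, 2.84 and 3.42 and *BMP4* from 2.29, 3.05 and 2.94 to 1.30, 1.09 and 1.07. All 3 ligands were thus lower with *N1ICD*, with no overlap. The share of all genes without overlap was not counted, so this separation cannot be weighed against that of other genes in H69. The differences were -2.22 for *BMP2* (standard error 0.20, limma adjusted *P* = 9.14e-06) and -1.61 for *BMP4* (standard error 0.18, limma adjusted *P* = 3.78e-05). Parental H69 cells held *BMP4* at 1.96 on average, between the vector cells without and with dox.

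The ID genes did not move as a block. *ID2* fell from 5.40, 5.11 and 5.25 to 1.84, 2.15 and 2.25, *ID1* from 5.77, 6.30 and 6.28 to 4.32, 4.24 and 4.38, and *ID4* from 3.45, 3.25 and 3.38 to 1.23, 1.12 and 1.10. *ID3* rose from 5.93, 6.52 and 6.52 to 8.18, 8.19 and 8.22. *ID1*, *ID2* and *ID4* had every dox library below the others and *ID3* every dox library above. The differences were -3.17 for *ID2*, -2.21 for *ID4*, -1.80 for *ID1* and 1.87 for *ID3* (standard errors 0.12, 0.08, 0.14 and 0.16, limma adjusted *P* = 2.99e-08, 2.3e-08, 2.91e-06 and 4.91e-06). *SMAD6* fell from 5.06, 5.23 and 5.21 to 3.92, 4.02 and 3.59, by 1.33 on the log2 scale (standard error 0.11, limma adjusted *P* = 4.78e-06). All 8 were called under each alternative tried. The median difference was -2.01 over the members and 0.08 over all genes.

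Of 9 other ligands in H69, 3 rose and 2 fell, in a comparison in which 41.8% of all genes were called. *INHBA* went from 1.16 to 5.97 and *INHBB* from 6.49 to 1.23. Of 10 receptors 2 rose and 4 fell, with *ENG* from 0.70 to 3.35 and *RGMB*, a BMP co-receptor, from 6.38 to 3.29. Of 9 antagonists 4 rose and 3 fell, with *FSTL1* from 1.49 to 11.70 and *FSTL3* from 1.80 to 5.86. Of 8 other BMP targets 3 rose and 2 fell, and *HEY1*, also a Notch target, was among those that rose. *DLX5*, a homeobox gene, went from 7.12 to 1.84 and *RUNX2*, an osteogenic factor, from 0.04 to 1.96. Among 7 SMADs and SMAD ubiquitin ligases *SMURF1* rose by 1.31 and *SMAD4* fell by 1.19. *SMAD9* fell by 3.38, as it also fell in H82 and H524. *NEUROD1* was 4.37 on average in parental cells, 9.39 in vector cells without dox and listed at 0 in all 3 dox libraries. Its difference between vector cells without dox and parental cells was 5.02 (limma adjusted *P* = 0.000385). The vector without dox changed 0 of 8 members relative to parental H69 (5.27% of all genes), although limma gave *ID2*, *ID4*, *BMP4* and *BMP7* an adjusted *P* under 0.05 with differences of -0.98, -0.25, 0.80 and -0.79.

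A model over all 60 human libraries compared the responses to *N1ICD*. Line and any batch of library preparation cannot be told apart. The response of H524 minus that of H82 was 2.42 for *BMP7*, 2.37 for *ID4*, -4.17 for *BMP2* and -3.002 for *BMP4*, 4 of 8 members with 19.7% of all genes called. H69 against H82 differed in 5 of 8 members, with 43.1% of all genes called, by -7.21 in *BMP2*, -5.98 in *BMP7*, -5.05 in *BMP4*, -2.61 in *ID4* and -2.57 in *ID2*. H69 against H524 differed in the same 5 genes, with 36.8% of all genes called, by -8.40 in *BMP7*, -4.98 in *ID4*, -3.04 in *BMP2*, -2.60 in *ID2* and -2.04 in *BMP4*. The limma adjusted *P* values of these 14 differences were at most 0.00137. The responses of *ID3* did not differ by limma, with 1.13 for H524 against H82 (standard error 0.85, adjusted *P* = 0.331) and 1.47 for H69 against H82 (standard error 0.85, adjusted *P* = 0.131). The response of *ID1* in H524 minus that in H82 was 1.66 (standard error 1.06, limma adjusted *P* = 0.242) and was called at 2.88 without library 22 (limma adjusted *P* = 0.0222).

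**Figure D4:**
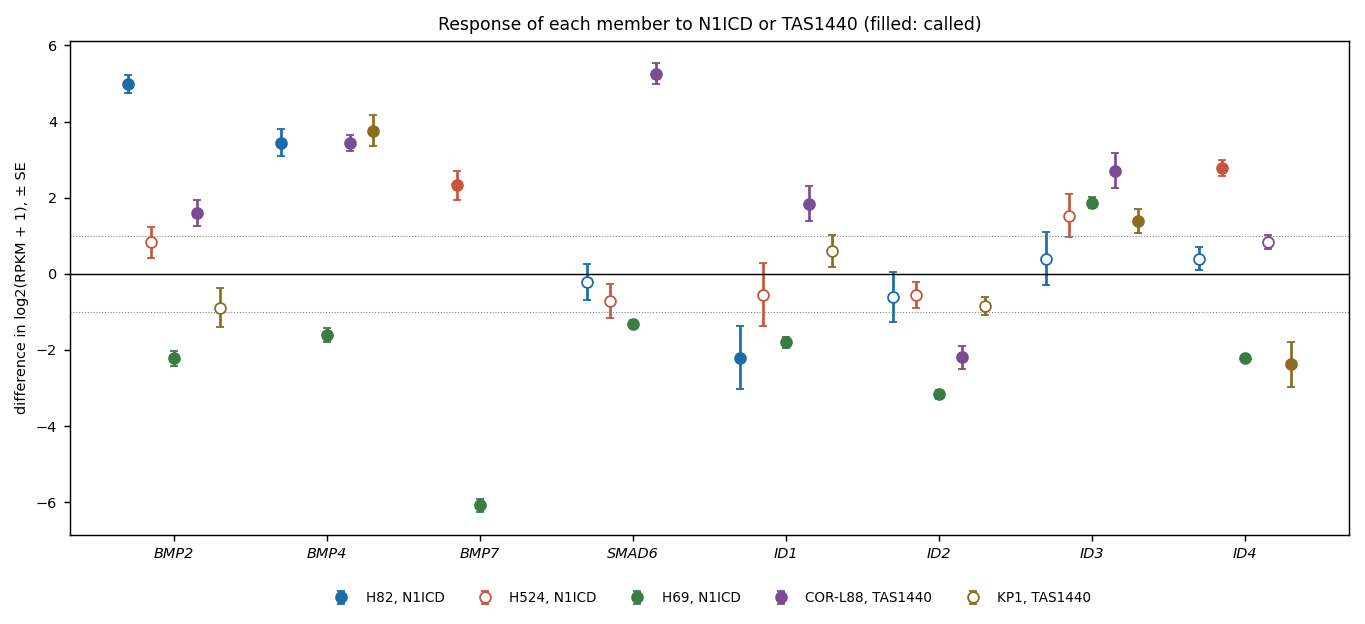
Differences in log2(RPKM + 1) ± standard error (y axis) of the 8 genes (x axis) with *N1ICD* in H82, H524 and H69 and with TAS1440 in COR-L88 and KP1, filled where called. Points for *BMP2* run from 4.99 in H82 to -2.22 in H69, and genes too low for a test have no point.

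LSD1 is a histone demethylase whose inhibition raises Notch signaling in SCLC, and in the GSI arm the cleavage of Notch receptors is blocked as well. The paper adds that such inhibitors also act on other membrane proteins, and these effects cannot be told apart here. TAS1440 raised 5 of the 7 members tested and lowered 1, where 22.8% of all genes were called. *SMAD6* was 2.44, 1.35 and 1.68 with DMSO and 6.63, 7.21 and 7.41 with TAS1440, its difference of 5.26 (standard error 0.27, limma adjusted *P* = 6.31e-09) being the largest among the members. *BMP4* was 1.04, 0.89 and 0.47 with DMSO and 4.45, 4.26 and 4.01 with TAS1440, a difference of 3.44 (standard error 0.22, limma adjusted *P* = 4.3e-08). Neither gene overlapped. *BMP2* was 1.92, 2.62 and 2.63 with DMSO and 4.68, 4.20 and 3.07 with TAS1440, a difference of 1.59 (standard error 0.34, limma adjusted *P* = 0.00134).

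*ID3* was 5.39, 3.57 and 4.36 with DMSO and 6.32, 7.42 and 7.71 with TAS1440. *ID1* was 5.32, 3.63 and 3.84 with DMSO and 5.65, 6.16 and 6.52 with TAS1440. Both rose without overlap, by 2.71 for *ID3* (standard error 0.45, limma adjusted *P* = 0.000185) and 1.85 for *ID1* (standard error 0.47, limma adjusted *P* = 0.00431). *ID2* moved the other way, from 7.76, 6.93 and 7.35 to 4.74, 5.14 and 5.58, a difference of -2.19 (standard error 0.30, limma adjusted *P* = 3.58e-05). *ID4* had a limma adjusted *P* of 0.00206 with a difference of 0.83, below the fold required. The median difference was 1.85 over the members and 0.01 over all genes.

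With GSI added to TAS1440, the members divided. *ID1* and *ID3* were 5.86 to 6.73 and 6.58 to 7.43, and TAS1440 alone differed from the combination by -0.12 for *ID1* (standard error 0.47, limma adjusted *P* = 0.852) and 0.21 for *ID3* (standard error 0.45, limma adjusted *P* = 0.740). Both were above DMSO with the combination, by 1.97 and 2.50 (limma adjusted *P* = 0.00735 and 0.00105). *ID2* was 7.72, 7.59 and 7.49 with the combination, overlapping DMSO and above every library of TAS1440 alone. *BMP4* at 2.47, 2.42 and 1.74 and *SMAD6* at 5.97, 5.49 and 5.37 lay between DMSO and TAS1440, apart from both. For TAS1440 alone against the combination, the differences were -2.44 for *ID2*, 2.03 for *BMP4* and 1.47 for *SMAD6* (standard errors 0.30, 0.22 and 0.27, limma adjusted *P* = 3.11e-05, 1.21e-05 and 0.000681). *BMP2* was called as well, with 1.14 (limma adjusted *P* = 0.0149) in overlapping groups, and did not pass without library 13, 14 or 18, at 0.79 to 1.03. These were 4 of 7 members against 14.7% of all genes. The combination against DMSO gave 4 of 7 against 9.02% of all genes, with *SMAD6* higher by 3.79 and *BMP4* by 1.41 (limma adjusted *P* = 3.04e-07 and 0.000346) beside *ID1* and *ID3*.

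**Figure D5:**
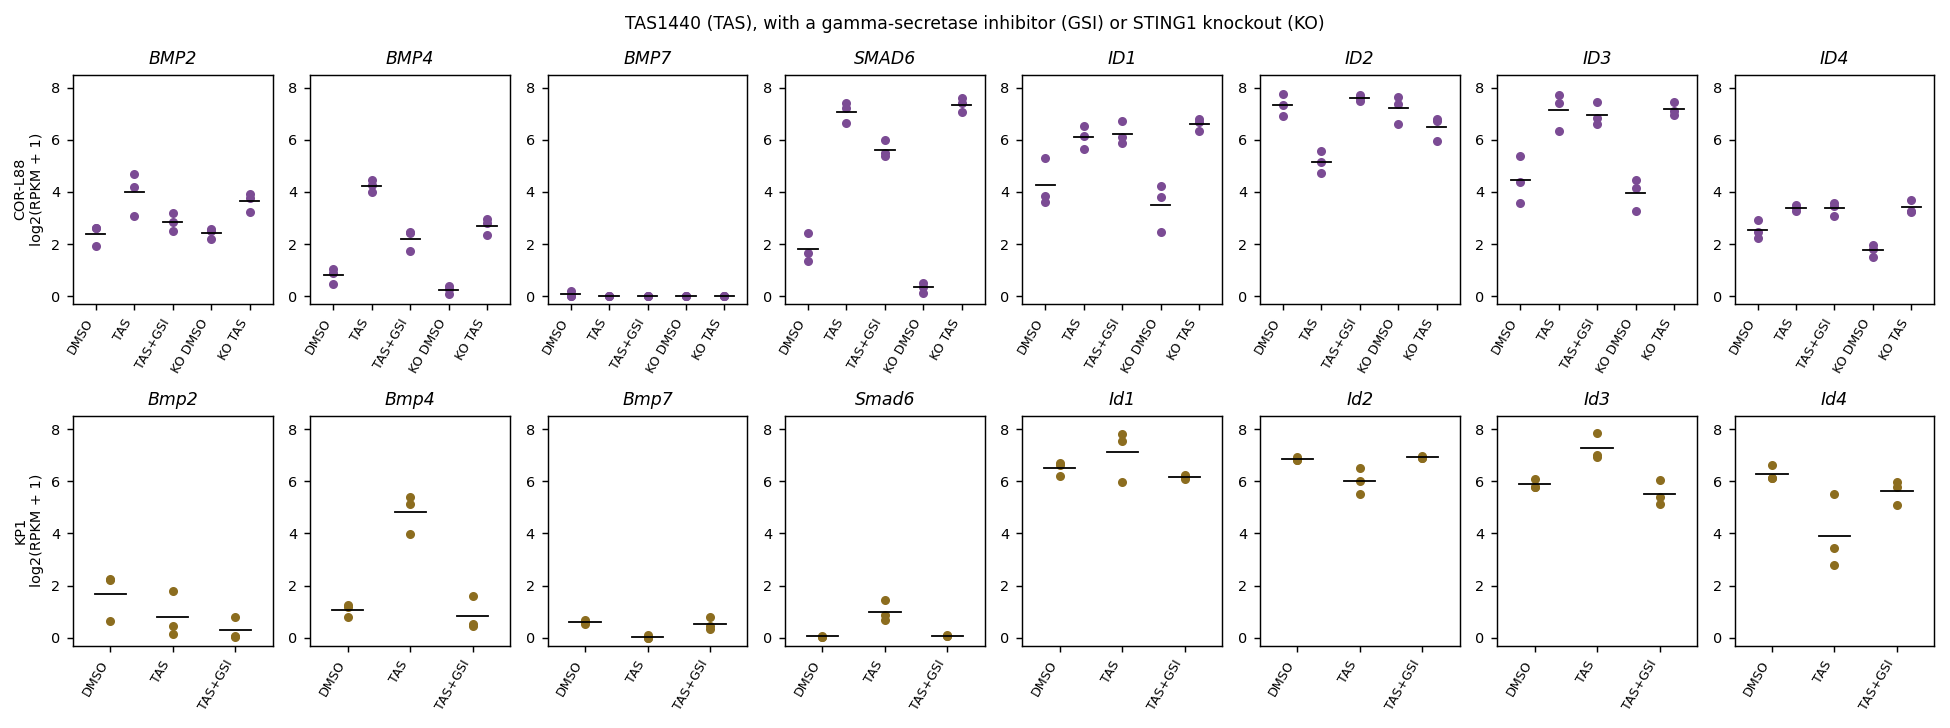
Log2(RPKM + 1) (y axes) of the 8 genes in COR-L88 (top) and KP1 (bottom) by treatment (x axis; KO, cells labelled *STING1* KO), with 1 point per library and a bar at the mean. In COR-L88, *ID2* is at 4.74 to 5.58 with TAS1440 and at 7.49 to 7.72 with GSI added, and *Bmp4* in KP1 is at 3.99 to 5.41 and at 0.43 to 1.58.

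In cells labelled *STING1* KO, TAS1440 raised 6 of 7 members, with 16.0% of all genes called. *SMAD6* went from 0.37, 0.14 and 0.51 to 7.40, 7.60 and 7.05, a difference of 7.01 (standard error 0.27, limma adjusted *P* = 6.19e-10). *ID3* rose by 3.23, *ID1* by 3.11, *BMP4* by 2.45, *ID4* by 1.64 and *BMP2* by 1.21, all without overlap (limma adjusted *P* of 6.8e-05, 0.000129, 1.35e-06, 1.25e-05 and 0.0112). *ID2* was 7.64, 6.61 and 7.36 with DMSO and 6.79, 5.94 and 6.71 with TAS1440, overlapping, a difference of -0.72 (standard error 0.30, limma adjusted *P* = 0.0696). Between the cells on TAS1440, *ID2* was higher by 1.33 and *BMP4* lower by 1.53 on the log2 scale in the labelled KO cells (limma adjusted *P* = 0.00639 and 0.000382), 2 of 7 members with 6.53% of all genes. Between the cells on DMSO, *SMAD6* was lower by 1.48 (limma adjusted *P* = 0.00796), 1 of 7 with 1.47% of all genes. The larger response of *SMAD6* in the labelled KO cells was 1.75 in the test of the difference (standard error 0.39, limma adjusted *P* = 0.0171), 1 of 7 with 4.23% of all genes. On TAS1440 the *SMAD6* levels differed by 0.27 (limma adjusted *P* = 0.497). On TAS1440, *NOTCH1* was 2.82 to 4.93 in the labelled KO cells, against 1.99 to 2.79 in the others, and its part in these differences was not tested. For *ID2* the difference of the responses was 1.47 (limma adjusted *P* = 0.0516), and it was called in 5 alternatives.

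Of 7 other BMP targets tested in COR-L88, 5 rose with TAS1440 and 1 fell, with a median of 1.60. The list they come from includes *HES1* and *HEY1*, which are also Notch targets. Of all genes, 22.8% were called in this comparison. *ATOH8*, a bHLH target of BMP in endothelium, went from 1.00 to 4.76, *DLX5* from 0.88 to 4.45 and *GATA2* from 1.36 to 3.87. Of 9 antagonists 5 rose and 1 fell, *CER1* from 5.43 to 0.84. *SMAD7* rose by 1.56 (limma adjusted *P* = 0.000315). Of 8 receptors 3 rose, *ENG* by 1.65, the type I receptor *ACVR1* by 1.20 and the type II receptor *BMPR2* by 1.02, and *ACVR2B* fell. The adherent marker *VIM* rose with TAS1440 from 1.62 to 1.93 with DMSO to 7.32 to 7.70, and its part in the result was not tested.

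In the mouse line, *Bmp4* was the member with the largest change. It was 1.18, 1.25 and 0.80 with DMSO, 5.11, 3.99 and 5.41 with TAS1440, and 0.43, 0.52 and 1.58 with TAS1440 and GSI. It was apart in TAS1440 from both other groups, by 3.76 against DMSO and 3.99 against the combination (standard error 0.40 each, limma adjusted *P* = 9e-05 and 7.54e-05). *Id3* was 5.77, 5.77 and 6.10 with DMSO, 6.99, 6.94 and 7.86 with TAS1440 and 5.40, 6.03 and 5.11 with the combination. TAS1440 was higher by 1.39 and 1.75 (standard error 0.31 each, limma adjusted *P* = 0.00675 and 0.00214). *Id4* was 6.10, 6.12 and 6.61 with DMSO and 5.50, 2.78 and 3.42 with TAS1440, a difference of -2.38 (standard error 0.60, limma adjusted *P* = 0.0122) in which library 4, at 5.50, was nearest to DMSO. Against the combination, at 5.79, 5.96 and 5.08, *Id4* did not pass (-1.71, limma adjusted *P* = 0.055) and was called at -2.51 without library 4.

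*Id1* was 6.61, 6.69 and 6.22 with DMSO and 5.96, 7.54 and 7.83 with TAS1440, and library 4 was again the one that did not move with the other 2. With all libraries the difference was 0.60 (standard error 0.42, limma adjusted *P* = 0.294), and without library 4 it was called at 1.17. *Id2* had a difference of -0.84 (limma adjusted *P* = 0.0220), below the fold required, and was called at -1.09 without library 6. Its groups did not overlap, at 5.50, 6.02 and 6.51 against 6.81, 6.91 and 6.83. *Smad6* and *Bmp7* were too low to be tested. *Smad6* was 0.04, 0.04 and 0.06 with DMSO, 0.70, 0.86 and 1.43 with TAS1440 and 0.11, 0.08 and 0.06 with the combination, so that every TAS1440 library was above the rest. *Bmp7* was 0.53 to 0.68 with DMSO, 0.00 to 0.09 with TAS1440 and 0.32 to 0.80 with the combination. TAS1440 against DMSO thus called 3 of 6 members, with 18.8% of all genes, and against the combination 2 of 6, with 16.5%. The combination against DMSO called 0 of 6 by limma, with 1.21% of all genes, and *Bmp2* was the only member at an unadjusted *P* under 0.05, at 0.05, 0.07 and 0.81 against 2.20, 2.24 and 0.64. With TAS1440 alone *Bmp2* was 1.77, 0.47 and 0.16, a difference from DMSO of -0.90 (standard error 0.51, limma adjusted *P* = 0.202) that was called at -1.42 without library 3.

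Of 8 antagonists tested in KP1, 4 rose and 1 fell with TAS1440 against DMSO, with 18.8% of all genes called. *Cer1* fell from 5.52 to 0.45, and the follistatin-like gene *Fstl1* rose from 0.22 to 4.43. *Smad7* rose by 1.12 (limma adjusted *P* = 0.00431). *Hes1*, also a Notch target, and *Dlx5* led the 3 of 6 other targets that rose. The adherent marker *Vim* moved with these groups, at 0.62 to 1.04 with DMSO, 10.85 to 11.35 with TAS1440 and 1.73 to 4.40 with the combination, and its part in the result was not tested.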

How the data were processed

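RNA was sequenced from 60 human and 9 mouse (KP1) SCLC cell libraries, 3 per group, and groups were taken from the sample labels. The authors deposited log2(RPKM + 1) values, 1 table for the human lines and 1 for KP1, normalized separately. The submitters' processing notes name cutadapt, STAR, RSEM and edgeR with hg19 and mm10. Their versions, and the gene lengths behind the KP1 values, are not given in the sources used here. The depth in reads is not stated, and relative library sizes were read from the steps between the lowest values. No per-sample column was unmapped.

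The deposited values were used as they stand. For each line, genes at 1 or above in at least 3 libraries were tested with limma 3.58.1 (R 4.3.3; 1 mean per group, empirical Bayes with trend, two-sided, Benjamini-Hochberg over all genes tested). This left 13903 genes in H82, 13648 in H524, 13580 in H69, 13134 in COR-L88 and 8260 in KP1, and 15888 in the model over all human libraries. Calls needed an adjusted *P* below 0.05 and a difference of 1 or more in either direction. Responses were compared by contrasts of contrasts. The code was tested on simulated data. Positions and promoters were read from reference annotation, and Python 3.11.15, numpy 2.4.6, pandas 2.3.3 and matplotlib 3.10.9 were used for the rest.

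All 8 members were followed in every group and named with values where a comparison turned on them, and pathway genes were counted by list, with some of the called changes named. The members, pathway lists and markers were chosen with earlier results of these data known. Alternatives were no filter on low values, 0.1 in place of 1 added to RPKM, quantile normalization and median-centered libraries. Further ones were empirical Bayes without trend, only the compared groups, and each library left out in turn. One gene of the fixed lists is not reported here.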

Additional observations from a re-analysis of the deposited data

Results flagged for a closer look

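The results below were singled out because the responses of different cells to the same or a parallel treatment differed in a test of the difference itself (limma, adjusted over all genes). Values are differences of log2 differences.

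In H82, the response to *N1ICD* with *REST* KO minus that without was 3.09 for *ID3* (adjusted *P* = 0.0399), 3.21 for *ID4* (3.42e-05), 2.34 for *BMP2* (9.89e-05) and -2.07 for *BMP4* (0.00742). *BMP2* was listed at 0 in the *REST* KO cells without dox. With the labelled *STING1* KO, the value was -1.27 for *BMP2* (0.0262). In H524, the response to *N1ICD* minus that to *REST* was 2.45 for *ID3* (0.0459) and 3.18 for *ID4* (3.95e-06). Mean *ID4* already differed without dox, at 0.64 in the *N1ICD* and 2.54 in the *REST* vector cells. In COR-L88, the response of *SMAD6* to TAS1440 in the labelled *STING1* KO cells minus that in the others was 1.75 (0.0171).

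Between lines, the response to *N1ICD* in H524 minus that in H82 was 2.37 for *ID4*, -4.17 for *BMP2*, -3.002 for *BMP4* and 2.42 for *BMP7*. For H69 minus H82 it was -2.57 for *ID2*, -2.61 for *ID4*, -7.21 for *BMP2*, -5.05 for *BMP4* and -5.98 for *BMP7*. For H69 minus H524 it was -2.60 for *ID2*, -4.98 for *ID4*, -3.04 for *BMP2*, -2.04 for *BMP4* and -8.40 for *BMP7*.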

How the results depend on the processing

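No paired analysis was possible because the numbers in the labels are library numbers, which the compared groups do not share. Of 2751 values of single members under the alternatives, 2655 kept their side of the threshold, 41 were no longer called, 55 became called and 0 changed sign in a called value. Differences that were not called could change sign, as with *N1ICD* in H82 for *ID3* (-0.03 to 1.22) and *SMAD6* (-0.58 to 0.48).

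The number of members called moved by over 1.5 times as follows. With 0.1 added to RPKM it was 1 in place of 0 for *REST* KO without dox and for the vector in H82, 2 in place of 1 for the labelled *STING1* KO with DMSO in COR-L88, and 0 in place of 1 for the difference of responses with the labelled *STING1* KO in H82. With only the compared groups it was 5 in place of 3 for the labelled *STING1* KO with dox in H82, and 2 in place of 1 for its difference of responses. Without the filter it was 1 in place of 0 for the vector in H82 and 1 in place of 2 for *N1ICD* against *REST* in H524, where median-centered libraries also gave 1. Quantile normalization gave 1 in place of 0 for the vector in H69, 4 in place of 2 for TAS1440 against the combination in KP1, and 3 in place of 1 for the difference of responses in COR-L88, where median-centering gave 2.

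With each library left out in turn, the count ranged from 0 to 1 for *REST* KO without dox and for the vector in H82, from 1 to 2 for the labelled *STING1* KO without dox in H82, and from 0 to 2 for its difference of responses. It ranged from 2 to 4 for *N1ICD* in H524 and for TAS1440 against the combination in KP1, from 1 to 3 for *N1ICD* against *REST*, from 0 to 2 for the vector in H69, and from 1 to 2 for the difference of responses in COR-L88. Over all genes, the count moved by over 1.5 times for the vector in H82 (891, 392 to 1582), *REST* KO without dox (867, up to 1311), *REST* in H524 (255, 106 to 412), the vector in H524 (1651, 716 to 2301), the labelled *STING1* KO with DMSO (193, 119 to 372), the difference of responses in COR-L88 (556, 335 to 909) and the combination against DMSO in KP1 (100, down to 33). The causes were not tested.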

Other observations

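Among 13584 genes, the pattern most like that of each member over the 20 human group means, centered within each line, was measured by Pearson r as a description. *BMP4* was most like *FZD4* (0.94), a Wnt receptor, then *THSD4* and *KL* (0.93 each). *BMP2* was most like *CPNE4*, *CLIP2* and *NAV2* (0.93 each), and *BMP7* like *KRT19* (0.92), an epithelial keratin. *ID2* was most like *GLDN* (0.92), *ID3* like *GATA2* (0.90), which was itself counted among the BMP targets, and *ID4* like *TMEM150C* (0.90). *ID1* was most like *TSKU* (0.83), a secreted protein that binds BMP ligands, and *SMAD6* stood at rank 6 with 0.80. *SMAD6* was most like *CRISP3* and *PLEKHD1* (0.90 each). The groups share controls and libraries within a line.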
